A study of Homo sapiens with 18 samples.

Results

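The comparison described here set WiDr cells that carried a short hairpin RNA (shRNA) against IKKα beside WiDr cells that received vehicle, and followed every measured gene. It rests on 6 of the 18 arrays of the study, 3 in each group, chosen by their sample titles. WiDr is an established human colorectal cancer line that carries a mutant, active BRAF. The 3 tested arrays came from cells transduced with the IKKα shRNA. A further 3 WiDr arrays came from cells transduced with a control shRNA and were used as a second set of control arrays. The vehicle cells were not transduced, and the labels do not say whether the transduced cells also received vehicle. Hairpin, transduction, vehicle and any batch can therefore not be told apart in the main comparison, while the control shRNA arrays share the transduction. The labels name 1 IKKα shRNA and give neither its target site nor the number of clones, and whether replicate arrays stand for separate cultures is not given. Each p-value therefore reflects array-to-array spread alone, which may be technical. The other 9 arrays of the study, from WiDr cells treated with the RAF inhibitor AZ628 and from HT29 cells with vehicle or AZ628, entered the estimate of the spread and no comparison.

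IKKα, encoded by CHUK, is a kinase of the IKK complex together with IKKβ and the scaffold NEMO. In the canonical NF-κB pathway IKKβ is the main kinase that marks the inhibitor IκB for destruction and frees RELA and NFKB1, whereas in the non-canonical pathway the kinase NIK activates IKKα, which has the NFKB2 precursor processed. IKKα also has roles outside NF-κB, and mice without it fail to form a cornified epidermis.

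The arrays carry 49395 probe sets, of which 18132 stood for 1 gene each in the comparison, with signals on a log2 scale. Pairs of arrays had Pearson correlations of 0.9979 to 0.9983 among the IKKα shRNA arrays, 0.9870 to 0.9889 between IKKα shRNA and vehicle arrays, and 0.9855 to 0.9869 between IKKα shRNA and control shRNA arrays. Control shRNA and vehicle arrays correlated at 0.9939 to 0.9963. Of 12 markers of colorectal epithelium, the keratins KRT8 and KRT18 and the adhesion molecule EPCAM had log2 changes of -0.01, -0.02 and 0.08 between IKKα shRNA and vehicle arrays, and none of these passed the test. The mean log2 signal of the 12 markers was 9.998 to 10.07 in IKKα shRNA arrays and 10.21 to 10.29 in vehicle arrays. In this list 2 genes rose and 3 fell, among them the galectin LGALS4, and 41.7% were called beside 36.3% of all genes. Of 11 housekeeping genes 4 rose and 3 fell, and their median change was -0.02. Their called share, 63.6%, was above that of all genes, and ACTB changed by 0.43 and GUSB by -0.48. The difference between 3′ and 5′ GAPDH control probe sets, a sign of RNA integrity, was 0.142 to 0.172 in IKKα shRNA arrays, 0.161 to 0.19 in control shRNA arrays and 0.0762 to 0.126 in vehicle arrays, so both transduced groups lay above vehicle. That of actin overlapped between the groups, at 1.32 to 1.60 in IKKα shRNA arrays, 1.47 to 1.59 in control shRNA arrays and 1.36 to 2.01 in vehicle arrays. The part of RNA integrity in the results was not tested.

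The hairpin's target checked the labels. CHUK had log2 signals of 7.68, 7.23 and 7.65 in IKKα shRNA arrays, against 9.68, 9.45 and 9.78 in control shRNA arrays and 9.67, 9.29 and 9.50 in vehicle arrays. All 3 IKKα shRNA arrays lay below all 6 others. The log2 change was -1.97 against vehicle, a 3.91-fold lower signal (SE 0.12, limma adjusted p = 1.49e-09), and -2.12 against control shRNA. CHUK was read by 1 probe set, and the control shRNA arrays differed from vehicle by 0.15 (adjusted p = 0.401). The titles and the target transcript thus ran the same way in all 9 WiDr arrays. The free-text description of the 3 IKKα shRNA arrays also carries the word control before the IKKα hairpin's name, so their group rests on the titles.

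Many genes moved, most of them by little. At an adjusted p under 0.05, 6573 genes differed between IKKα shRNA and vehicle arrays, 36.3% of those tested. Of these, 2976 rose (16.4% of all genes) and 3597 fell (19.8%). The change was under 2-fold for 92.2% of the called genes, and the median log2 change of all genes was -0.06. At 2-fold or more 515 genes differed (2.84%), of which 303 rose (1.67%) and 212 fell (1.17%). All 3 IKKα shRNA arrays lay above all 3 vehicle arrays for 20.2% of genes and below them for 27.4%. At 4-fold or more 56 rose and 16 fell, and at 8-fold or more 15 rose and 1 fell, so the largest changes against vehicle ran mainly upward. This depended on the reference, since against control shRNA 53 rose and 55 fell at 4-fold or more. At 8-fold or more 14 rose and 7 fell against control shRNA.

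**Figure D1:**
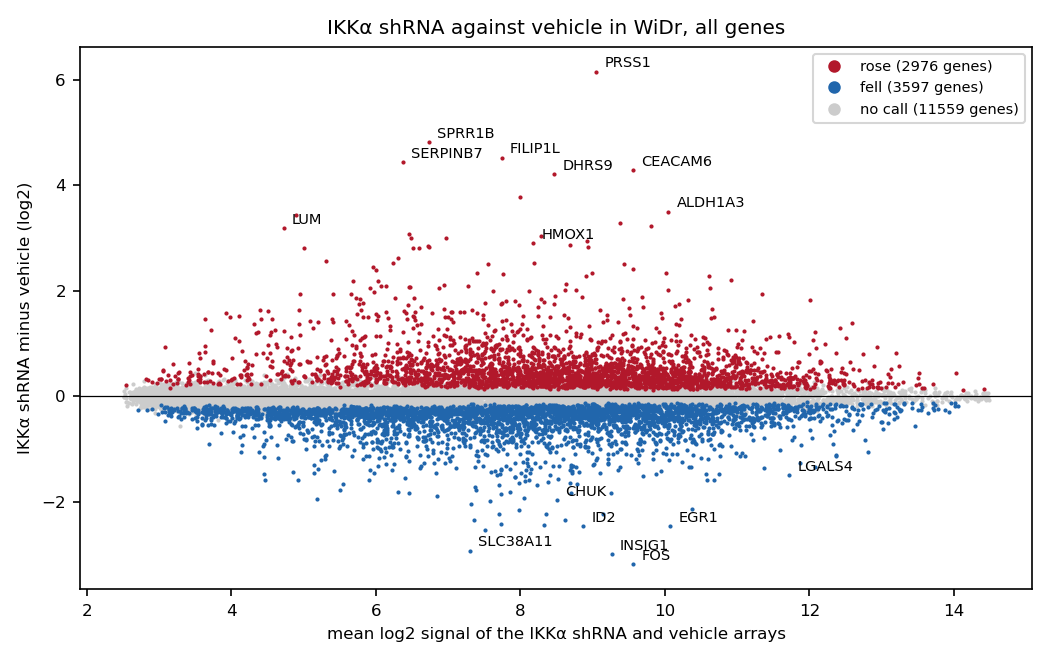
Each point is 1 of 18132 genes, with its mean log2 signal over the 6 IKKα shRNA and vehicle arrays on the horizontal axis and its log2 change, IKKα shRNA minus vehicle, on the vertical axis. Red points rose and blue points fell at an adjusted p under 0.05, grey points have no call, and the rises reach 6.15 whereas the falls end at -3.19.

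The control shRNA arrays show which of these changes stand with either set of control arrays. Against control shRNA, 6323 genes differed (34.9%), of which 2880 rose (15.9%) and 3443 fell (19%). At 2-fold or more 684 genes differed from control shRNA (3.77%), with 276 rises (1.52%) and 408 falls (2.25%). A total of 4453 genes (24.6% of all genes) were called in the same direction against both, namely 2029 that rose (11.2%) and 2424 that fell (13.4%). They made up 67.7% of the genes called against vehicle. Both comparisons use the same IKKα shRNA arrays, so this count is a description and no independent check. Most changes of at least 2-fold against vehicle were also called against control shRNA, some at a smaller size. Of the 303 genes that rose at least 2-fold against vehicle, 293 also rose against control shRNA (221 of them at least 2-fold), 5 had no call and 5 were called in the opposite direction. For 109 of the 303 the control shRNA arrays were themselves called above vehicle, and for 35 they were called below it. Of the 212 that fell at least 2-fold, 210 also fell against control shRNA (189 of them at least 2-fold) and 2 had no call. Control shRNA was called below vehicle for 18 of the 212 and above vehicle for 98. Every IKKα shRNA array lay above all 6 control shRNA and vehicle arrays for 294 of the 303 (14.3% over all genes), and below all 6 for each of the 212 (16.3% over all genes). These genes were picked by their change in the same arrays, and all 303 and all 212 lay beyond the vehicle arrays. Their separation is therefore no added support, and the shares over all genes are of unselected genes.

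Among the calls that needed the vehicle arrays, 887 genes rose and 1153 fell against vehicle with no call against control shRNA. Another 60 genes rose against vehicle and fell against control shRNA, and 20 did the opposite. Control shRNA arrays themselves differed from vehicle arrays in 4023 genes (22.2%), of which 2099 rose (11.6%) and 1924 fell (10.6%). In 66 genes this rise was at least 2-fold (0.364%), and in 5 genes the fall was (0.0276%), together 71 genes (0.392%).

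The genes of the IKK complex and NF-κB itself, apart from CHUK, moved by under 2-fold. Of 17 measured members, with CHUK counted among the falls, 7 rose and 3 fell against vehicle, with a median change of 0.21. Against both sets of control arrays 2 rose and 3 fell, CHUK again included. In this list 58.8% were called against vehicle, beside 36.3% of all genes. IKBKB, which encodes IKKβ, had signals of 7.98, 7.94 and 8.21 in IKKα shRNA arrays, against 7.88, 7.87 and 7.63 in control shRNA arrays and 7.85, 7.74 and 7.82 in vehicle arrays. Its change of 0.24 against vehicle did not pass the test (SE 0.11, adjusted p = 0.0848). The scaffold NEMO, encoded by IKBKG, rose by 0.55 against vehicle (SE 0.09, adjusted p = 8.54e-05) and by 0.48 against control shRNA, although its 8 probe sets ranged in change from -0.08 to 0.73. MAP3K14, which encodes the kinase NIK, had signals of 6.59, 6.63 and 6.67 in IKKα shRNA arrays, against 6.08, 6.15 and 5.98 in control shRNA arrays and 6.07, 5.87 and 5.92 in vehicle arrays. It rose by 0.68 (SE 0.07, adjusted p = 8.91e-07), and the groups did not overlap, although its other probe set changed by -0.25. The inhibitor gene NFKBIA and the subunit gene NFKB1 both fell by 0.28 against vehicle, and fell by 0.40 and by 0.50 against control shRNA. The subunit genes REL and RELA rose against vehicle by 0.69 and 0.22 and had no call against control shRNA, and the RELA call was lost when the 6 IKKα shRNA and vehicle arrays were fitted alone (adjusted p = 0.0908). It was also lost without replicate 2 or 3 of IKKα shRNA (0.0525 and 0.131) or of vehicle (0.107 and 0.0796). The IκB family member BCL3 did the same with a change of 0.52, which was -0.091 with probe sets of possible cross-matches left out. RELB, partner of the processed NFKB2 product, changed by 0.29 without passing the test (adjusted p = 0.0721).

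Targets of NF-κB did not move in 1 direction. Of 20 measured canonical targets 6 rose and 5 fell against vehicle, with a median change of -0.02, and 4 rose and 3 fell against both. Their called share was 55%, beside 36.3% of all genes. PLAU, described below with the proteases, rose most among the canonical targets. CXCL8, the neutrophil chemokine interleukin 8, had signals of 10.55, 10.62 and 10.87 in IKKα shRNA arrays, against 8.12, 8.24 and 8.48 in control shRNA arrays and 9.51, 9.69 and 9.69 in vehicle arrays. It stood above all other WiDr arrays compared here, by 1.05 against vehicle (SE 0.13, adjusted p = 7.02e-06) and by 2.40 against control shRNA. The neighbouring chemokine CXCL1 fell by 0.34 against vehicle and rose by 0.61 against control shRNA, and control shRNA arrays lay 0.95 below vehicle for it. The CXCL1 call against vehicle (adjusted p = 0.0437) was lost on leaving out any 1 array of these 9, with adjusted p between 0.0517 and 0.113. CCL20, a chemokine for lymphocytes and dendritic cells, fell by 0.77 against vehicle and by 0.64 against control shRNA. Of 9 measured non-canonical targets 1 rose and 2 fell, and the B cell survival factor TNFSF13B fell by 0.83 against vehicle and by 0.75 against control shRNA. The called share of the non-canonical list, 33.3%, was near the 36.3% of all genes.

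The largest rises included genes of squamous epithelium, the layered epithelium of skin and oesophagus. SPRR1B, a small proline-rich protein of the cornified envelope, had signals of 9.03, 9.08 and 9.31 in IKKα shRNA arrays, against 3.72, 3.89 and 3.84 in control shRNA arrays and 4.32, 4.21 and 4.46 in vehicle arrays. The log2 rise was 4.81 against vehicle (SE 0.14, adjusted p = 5.43e-14) and 5.32 against control shRNA. SERPINB7, a serine protease inhibitor of the epidermis, had signals of 8.59, 8.50 and 8.68 in IKKα shRNA arrays, against 4.03, 4.44 and 4.50 in control shRNA arrays and 4.12, 4.19 and 4.15 in vehicle arrays. It rose by 4.43, and for both genes every IKKα shRNA array lay above all 6 others. Detection calls were not used here, so the low control signals of these genes are not shown to be above background and no fold is given for them. The keratins KRT80 and KRT13 rose by 1.70 and 1.59, and SPRR1A rose by 1.65. SCEL (sciellin, another envelope protein) rose by 2.86, and GJB6 (a connexin of skin and inner ear) rose by 3.08.

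As a whole the squamous list moved in both directions. Of 35 measured members 11 rose and 7 fell against vehicle (16.4% and 19.8% over all genes), and the median change was 0.01. Against both, 10 rose and 5 fell (11.2% and 13.4% over all genes). In this list 51.4% were called against vehicle, beside 36.3% of all genes. KLK11, a kallikrein protease, fell by 1.34 against vehicle and fell by 2.13 against control shRNA, and OVOL1, a transcription factor of epithelial differentiation, fell by 0.60. DSC2, a desmosomal cadherin, fell by 0.25 through its brightest probe set, but its 6 probe sets ranged from -0.25 to 0.79 and their mean gave 0.19 (adjusted p = 0.0965).

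**Figure D2:**
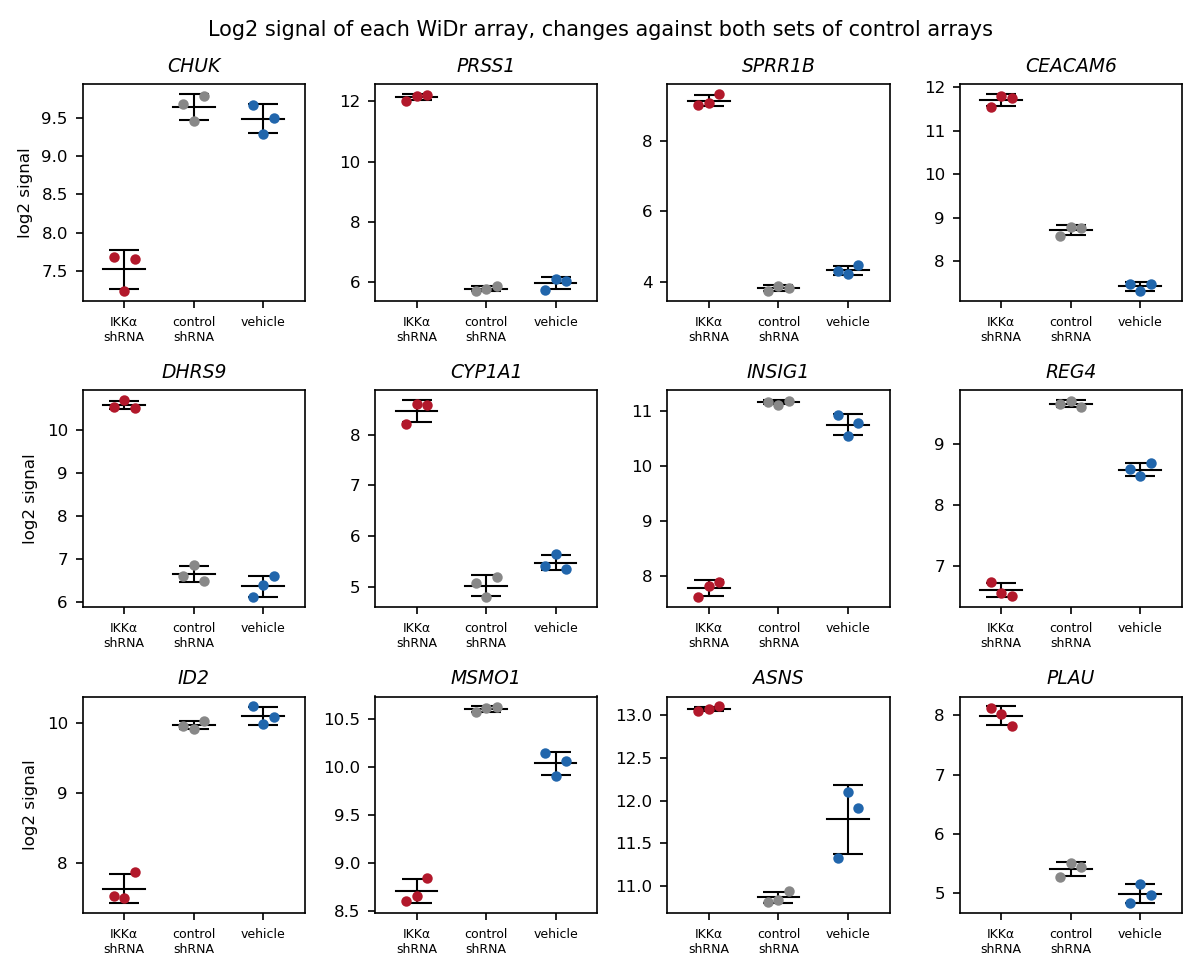
Log2 signal of each of the 9 WiDr arrays for 12 genes, with IKKα shRNA, control shRNA and vehicle arrays from left to right, where points are arrays and bars are the mean and SD of 3 arrays. The vertical axes do not start at 0, and in each panel the 3 IKKα shRNA arrays lie on 1 side of the 6 others.

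Several CEACAM genes and proteases were among the large rises. CEACAM6, a carcinoembryonic antigen-related adhesion molecule of gut epithelium, had signals of 11.54, 11.80 and 11.75 in IKKα shRNA arrays, against 8.58, 8.79 and 8.77 in control shRNA arrays and 7.47, 7.30 and 7.48 in vehicle arrays. The control shRNA arrays lay between the others, 1.30 above vehicle (adjusted p = 2.71e-08), so the rise was 4.28 against vehicle and 2.98 against control shRNA. CEACAM5, the carcinoembryonic antigen used as a tumour marker, rose 13.7-fold against vehicle (log2 3.78, SE 0.08, adjusted p = 4.4e-15) and by 3.28 on the log2 scale against control shRNA. Of 9 measured CEACAM genes 4 rose against both and none fell, the others being CEACAM1 (0.88) and CEACAM7 (1.16). The median of the 9 was 0.08, and probe sets of these close relatives can share target sequence.

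PRSS1, cationic trypsinogen, showed the largest change of all genes. Its signals were 12.01, 12.18 and 12.19 in IKKα shRNA arrays, against 5.70, 5.79 and 5.87 in control shRNA arrays and 5.74, 6.12 and 6.06 in vehicle arrays. That is a rise of 6.15, or 71.1-fold (SE 0.11, adjusted p = 4.18e-16). The probe set carries a name ending that marks possible matches to related genes, and the 3 PRSS1 probe sets ranged from 0.14 to 6.15. With such probe sets left out, the PRSS1 change was 0.14 (adjusted p = 0.234), so the gene of the trypsinogen family that gave the signal cannot be told from these arrays. PLAU, the urokinase that activates plasminogen, had signals of 8.13, 8.02 and 7.82 in IKKα shRNA arrays, against 5.28, 5.51 and 5.44 in control shRNA arrays and 4.84, 5.16 and 4.98 in vehicle arrays. It rose by 3.00 on the log2 scale against vehicle (SE 0.11, adjusted p = 7.72e-13), with no overlap between the groups. The low control signals of PLAU are not shown to be above background, so no fold is given. The metalloprotease inhibitor TIMP2 rose by 2.01, the serine protease PRSS23 by 1.36, and the membrane serine protease prostasin, encoded by PRSS8, by 1.23. Of 24 measured proteases and protease inhibitors 15 rose and 2 fell against vehicle, with a median change of 0.42, and 14 rose and 1 fell against both.

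Genes of retinoid metabolism held further large rises. DHRS9, a dehydrogenase that turns retinol into retinal, had signals of 10.53, 10.69 and 10.52 in IKKα shRNA arrays, against 6.60, 6.85 and 6.48 in control shRNA arrays and 6.10, 6.38 and 6.60 in vehicle arrays. It rose 18.6-fold (log2 4.22, SE 0.11, adjusted p = 1.92e-14). ALDH1A3, which makes retinoic acid from retinal, had signals of 11.78, 11.80 and 11.82 in IKKα shRNA arrays, against 8.85, 8.64 and 8.49 in control shRNA arrays and 8.39, 8.22 and 8.28 in vehicle arrays, a rise of 11.3-fold. Both enzymes lie on the route from retinol to retinoic acid, and RDH10, another retinol dehydrogenase, rose by 1.25. RARRES1, a gene named for its induction by retinoids, rose by 1.88 against vehicle and by 0.61 against control shRNA, since control shRNA arrays lay 1.27 above vehicle. Related enzymes moved the other way, with ALDH1A1 lower by a log2 change of -0.42 and RDH11 by -0.52. Of 22 measured retinoid genes 9 rose and 3 fell against vehicle, with a median change of 0.04, and 7 rose and 2 fell against both.

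Xenobiotic defence genes were split between rises and falls, whereas oxidative defence genes, given after them, mostly rose where they changed. CYP1A1, the cytochrome P450 that is the classic target of the aryl hydrocarbon receptor, had signals of 8.22, 8.60 and 8.58 in IKKα shRNA arrays, against 5.08, 4.78 and 5.20 in control shRNA arrays and 5.41, 5.64 and 5.36 in vehicle arrays. It rose by 3.00 on the log2 scale against vehicle (SE 0.15, adjusted p = 6.93e-11), and its low control signals are not shown to be above background. CYP1B1 rose by 2.51 against vehicle and by 1.80 against control shRNA, the receptor gene AHR rose by 0.78, and its feedback gene TIPARP rose by 0.81. Of 10 measured genes of this receptor pathway 4 rose and 3 fell, with a median of -0.14, and the 4 rises stood against both sets of control arrays. The falls were those of ALDH3A1 and ARNT, by 0.50 each, and of NQO1, by 0.14. The 5-letter receptor core GCGTG, on either strand, was found in the promoters of the 3 risen genes that have one in the table used, but also in 44.49% of all 14425 promoters. Of all 8 listed genes of this pathway with a promoter, risen or not, 6 held it.

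HMOX1, heme oxygenase, had signals of 9.56, 9.70 and 9.63 in IKKα shRNA arrays, against 6.74, 6.90 and 6.98 in control shRNA arrays and 6.59, 6.81 and 6.78 in vehicle arrays. It rose 7.49-fold (SE 0.08 in log2, adjusted p = 4.01e-14), with the control shRNA arrays near vehicle. The aldo-keto reductases AKR1C1 and AKR1C2, close relatives whose probe sets may share targets, rose by 2.05 and 1.94, whereas AKR1B10 fell by 1.34. GCLM, a subunit of the enzyme that starts glutathione synthesis, rose by 0.62. TXNRD1 fell by 0.24, and GPX2 and NQO1 fell by 0.14 each. The calls of TXNRD1, GPX2 and NQO1 were each lost in at least 1 alternative fit. Of 20 measured genes of NRF2 and oxidative defence 11 rose and 4 fell, with a median of 0.18, and 11 rose and 1 fell against both.

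Genes of the amino acid response were the list with the largest share of rises. ATF4 is the transcription factor that raises amino acid transporters, biosynthetic enzymes and stress genes when amino acids run short or the endoplasmic reticulum is stressed. Of 28 measured genes of this response 22 rose and 1 fell against vehicle, with a median change of 0.78. The same counts, 22 and 1, stood against both sets of control arrays, and the median against control shRNA was 1.07. ASNS, asparagine synthetase, had signals of 13.04, 13.06 and 13.10 in IKKα shRNA arrays, against 10.83, 10.84 and 10.95 in control shRNA arrays and 11.33, 12.10 and 11.91 in vehicle arrays. The vehicle arrays spread most and the control shRNA arrays were lowest, so the rise was 1.28 against vehicle (SE 0.13, adjusted p = 4.5e-07) and 2.19 against control shRNA. DDIT4, an inhibitor of mTORC1, behaved alike, with signals of 11.02, 11.17 and 11.02 in IKKα shRNA arrays, against 8.44, 8.25 and 8.37 in control shRNA arrays and 9.17, 9.75 and 9.03 in vehicle arrays. NUPR1, a stress-induced chromatin protein, rose by 2.31, the lipoprotein receptor gene VLDLR by 2.62, and SLC7A5, the light chain of a large amino acid transporter, by 1.47. ALDH18A1, an enzyme of proline synthesis, fell by 0.36. In control shRNA arrays 10 of the 28 genes were below vehicle and 3 above.

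The enzymes that load amino acids onto transfer RNA moved with them. Of 15 measured synthetases 10 rose and none fell against vehicle, with a median of 0.29, and 9 rose against both. AARS1, the alanine enzyme, had signals of 10.68, 10.76 and 10.67 in IKKα shRNA arrays, against 9.79, 9.83 and 9.78 in control shRNA arrays and 9.72, 10.08 and 9.80 in vehicle arrays. It rose by 0.84 (SE 0.08, adjusted p = 1.65e-07), and YARS1, EPRS1 and LARS1, the tyrosine, glutamate-proline and leucine enzymes, rose by 0.62, 0.50 and 0.48.

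The promoters of ASNS and AARS1 are shown because each held the composite element known to be bound by ATF4 with a C/EBP partner, spelled TGATGNAA and searched on both strands. They are RefSeq promoters on GRCh38.p14, from 250 bases before to 50 after the gene's start, written 5′ to 3′ along the gene with the match in capitals. The ASNS promoter is chr7:97872359-97872658 on the minus strand, with the match starting at -68, and that of AARS1 is chr16:70289457-70289756 on the minus strand, with the match on the opposite strand at -187.
ASNS: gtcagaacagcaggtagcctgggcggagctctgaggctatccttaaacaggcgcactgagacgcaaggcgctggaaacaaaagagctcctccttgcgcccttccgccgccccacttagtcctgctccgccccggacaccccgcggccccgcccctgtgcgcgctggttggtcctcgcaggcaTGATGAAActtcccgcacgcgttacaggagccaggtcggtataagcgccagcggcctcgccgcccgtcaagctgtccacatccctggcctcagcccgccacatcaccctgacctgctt
AARS1: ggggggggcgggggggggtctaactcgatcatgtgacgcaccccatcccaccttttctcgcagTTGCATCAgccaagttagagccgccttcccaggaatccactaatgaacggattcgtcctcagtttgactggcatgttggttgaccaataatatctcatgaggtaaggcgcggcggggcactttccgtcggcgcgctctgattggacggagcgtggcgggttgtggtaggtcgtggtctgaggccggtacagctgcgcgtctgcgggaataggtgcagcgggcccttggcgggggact
The element was found in 4 of 18 risen amino acid response genes with a promoter in the table (22.2%), namely ASNS, ATF3, CHAC1 and SLC3A2. It was found in 5 of 8 risen synthetase genes (62.5%), namely AARS1, CARS1, IARS1, NARS1 and TARS1, and in 2.57% of all promoters. Of all listed genes with a promoter, risen or not, 6 of 24 amino acid response genes and 5 of 12 synthetase genes held it. A match describes the letters and is not evidence of binding.

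Chaperones of the endoplasmic reticulum moved less. Of 20 measured genes of the unfolded protein response 8 rose and 2 fell against vehicle, with a median of 0.04, and 5 rose and 2 fell against both. DNAJB9, a chaperone partner of the lumen, rose by 0.84, and the transcription factor gene XBP1 rose by 0.49.

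Most genes of cholesterol synthesis fell. They are switched on together by the transcription factor SREBP2 when sterols are scarce, and INSIG1, one of those targets, holds SREBP back in the endoplasmic reticulum. Of 19 measured genes 17 fell and 1 rose against vehicle, with a median change of -0.54. The same number, 17, fell against both sets of control arrays, the median against control shRNA was -0.75, and control shRNA arrays lay above vehicle for 11 of the 19. INSIG1 had signals of 7.60, 7.82 and 7.89 in IKKα shRNA arrays, against 11.18, 11.12 and 11.19 in control shRNA arrays and 10.93, 10.56 and 10.78 in vehicle arrays. It fell by 2.99 on the log2 scale, a 7.94-fold lower signal (SE 0.10, adjusted p = 4.37e-13). MSMO1, a methylsterol oxidase of the later steps, had signals of 8.61, 8.66 and 8.85 in IKKα shRNA arrays, against 10.58, 10.62 and 10.63 in control shRNA arrays and 10.15, 9.91 and 10.06 in vehicle arrays. It fell by 1.34 against vehicle (SE 0.09, adjusted p = 3.87e-09) and fell by 1.90 against control shRNA. Squalene epoxidase, encoded by SQLE, fell by 0.83, the thiolase gene ACAT2 by 1.01 and the sterol carrier gene STARD4 by 0.88. SREBF2, which encodes SREBP2, changed by -0.03 without passing the test. SC5D, a sterol desaturase, rose by 0.22 against vehicle (adjusted p = 0.0166) with probe sets between -0.83 and 0.40, and the mean of its probe sets changed by 0.01.

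The MSMO1 promoter is shown because it held the sterol regulatory element in the spelling TCACNCCA, on either strand. It is chr4:165327419-165327718 on the plus strand of GRCh38.p14, from RefSeq, with the match in capitals from -156.
MSMO1: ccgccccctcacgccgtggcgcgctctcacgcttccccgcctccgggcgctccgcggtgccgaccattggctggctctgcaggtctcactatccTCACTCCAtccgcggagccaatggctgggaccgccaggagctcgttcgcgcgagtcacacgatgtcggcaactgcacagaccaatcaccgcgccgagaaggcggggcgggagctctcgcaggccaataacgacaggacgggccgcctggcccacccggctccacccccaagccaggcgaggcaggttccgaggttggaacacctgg
This spelling was found in 2 of 15 fallen cholesterol genes with a promoter in the table (13.3%), MSMO1 and MVK, and in 3.69% of all promoters. Of all 17 listed cholesterol genes with a promoter, fallen or not, 3 held it.

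Fatty acid synthesis moved in both directions. Of 13 measured genes 5 rose and 3 fell against vehicle, with a median of -0.10, whereas 2 rose and 5 fell against control shRNA. Control shRNA arrays lay above vehicle for 7 of the 13. The desaturase gene SCD fell by 0.91 and SREBF1, which encodes SREBP1, fell by 0.78, whereas INSIG2, a relative of INSIG1, rose by 0.86. SOAT1, the enzyme that esterifies cholesterol, was among the 20 largest falls with a change of -1.95 against vehicle, and its 3 probe sets ranged from -1.95 to -0.62.

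**Figure D3:**
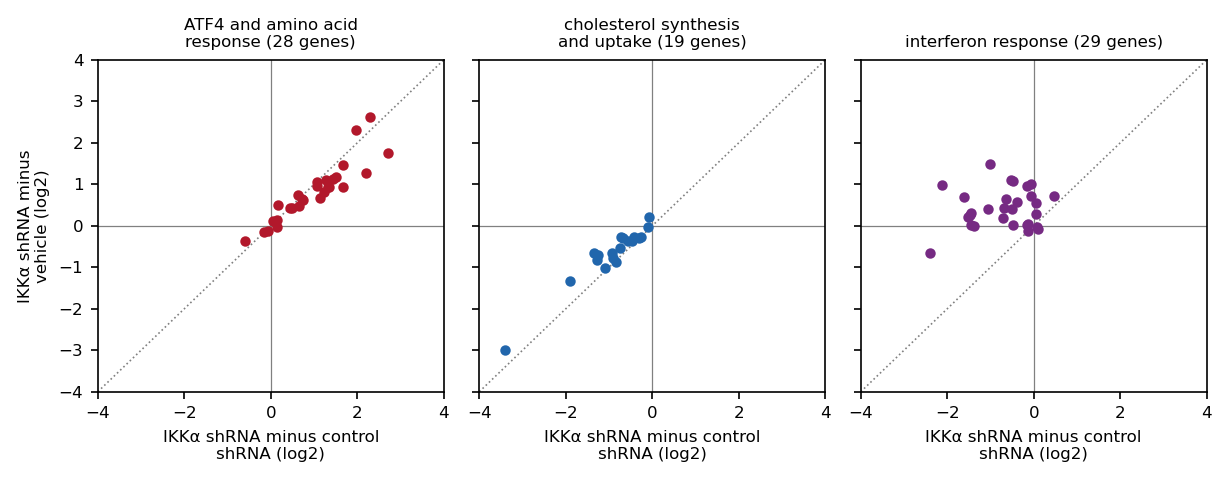
Log2 change of each measured gene of 3 lists, against control shRNA on the horizontal axis and against vehicle on the vertical axis, where the dotted diagonal marks equal changes. Both axes use the same IKKα shRNA arrays. Amino acid response genes lie mostly to the upper right and cholesterol genes to the lower left, whereas most interferon genes lie above 0 against vehicle and below 0 against control shRNA.

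Interferon-stimulated genes changed direction with the choice of control arrays. Of 29 measured genes 17 rose and 1 fell against vehicle (median 0.41), whereas 1 rose and 18 fell against control shRNA (median -0.50). Control shRNA arrays lay above vehicle for 24 of the 29 and below for none, with a median of 1.10. IFITM1, a membrane protein that restricts viral entry, had signals of 7.78, 7.91 and 7.53 in IKKα shRNA arrays, against 9.74, 9.94 and 9.88 in control shRNA arrays and 6.72, 6.86 and 6.73 in vehicle arrays. The 3 groups were apart, and the change was 0.97 against vehicle (SE 0.17, adjusted p = 0.000149) but -2.11 against control shRNA (adjusted p = 1.63e-08). IFI27, an interferon-induced mitochondrial protein, had signals of 11.28, 11.51 and 11.35 in IKKα shRNA arrays, against 12.30, 12.50 and 12.39 in control shRNA arrays and 9.78, 9.97 and 9.92 in vehicle arrays. MX1, a GTPase against influenza, changed by 0.69 against vehicle and by -1.61 against control shRNA. OAS1, which activates RNase L on double-stranded RNA, rose by 0.95 against vehicle and had no call against control shRNA, with a change of -0.15. IFI44 fell by 0.65 against vehicle through its brightest probe set, but its 6 probe sets ranged from -0.65 to 0.58. The genes called in opposite directions with the largest changes were mostly of this kind, and besides IFITM1, IFI27 and MX1 they included UBE2L6, CXCL11, IFIT2, IFI6, IFIH1 and IFIT1. For IFIH1 the rise of 0.30 lost its call in the 6 IKKα shRNA and vehicle arrays alone (adjusted p = 0.0519), with averaged probe sets (0.271), without replicate 3 of IKKα shRNA (0.13) and without replicate 2 of vehicle (0.129). Transduction, the control hairpin and a batch cannot be told apart for the difference between control shRNA and vehicle arrays.

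The IFI27 promoter, chr14:94110486-94110785 on the plus strand of GRCh38.p14 from RefSeq, is shown because it held 2 matches, in capitals, to the interferon response element in the spelling TTTCNNTTT, on either strand.
IFI27: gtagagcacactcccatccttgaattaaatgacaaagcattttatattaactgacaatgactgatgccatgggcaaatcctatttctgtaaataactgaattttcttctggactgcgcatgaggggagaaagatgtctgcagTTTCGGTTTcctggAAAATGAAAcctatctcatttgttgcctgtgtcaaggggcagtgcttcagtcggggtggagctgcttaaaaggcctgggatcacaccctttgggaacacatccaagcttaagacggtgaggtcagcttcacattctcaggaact
The element was found in 11 of 14 risen interferon genes with a promoter in the table (78.6%) and in 8.44% of all promoters. Of all 24 listed interferon genes with a promoter, risen or not, 19 held it, a like share.

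Antigen presentation by MHC class I, which interferon also raises, followed in part. Of 14 measured genes 8 rose and none fell against vehicle, with a median of 0.19, whereas 3 rose and 6 fell against control shRNA, with a median of -0.11. HLA-F rose by 1.16 against vehicle and by 0.84 against control shRNA, with 10 probe sets between -0.11 and 1.16.

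Among the largest falls against vehicle were early genes of growth factor signalling, which differed in whether they stood against control shRNA. FOS, a subunit of the AP-1 transcription factor, had signals of 7.82, 7.94 and 8.15 in IKKα shRNA arrays, against 9.68, 9.55 and 9.75 in control shRNA arrays and 11.12, 11.05 and 11.30 in vehicle arrays. It showed the largest fall against vehicle, by 3.19 (SE 0.19, adjusted p = 7.78e-10), and fell by 1.69 against control shRNA. EGR1, an early growth response transcription factor, had signals of 8.70, 8.89 and 8.94 in IKKα shRNA arrays, against 9.03, 9.05 and 9.17 in control shRNA arrays and 11.11, 11.33 and 11.45 in vehicle arrays. It fell by 2.46 against vehicle (SE 0.17, adjusted p = 5.4e-09), while the change of -0.24 against control shRNA was not called (adjusted p = 0.32). IER2, another immediate early gene, fell by 0.81 against vehicle and had no call against control shRNA, at -0.18. The chemokine receptor CXCR4 and the metal-binding protein MT2A followed the same pattern with changes of -0.63 and -0.74 against vehicle.

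**Figure D4:**
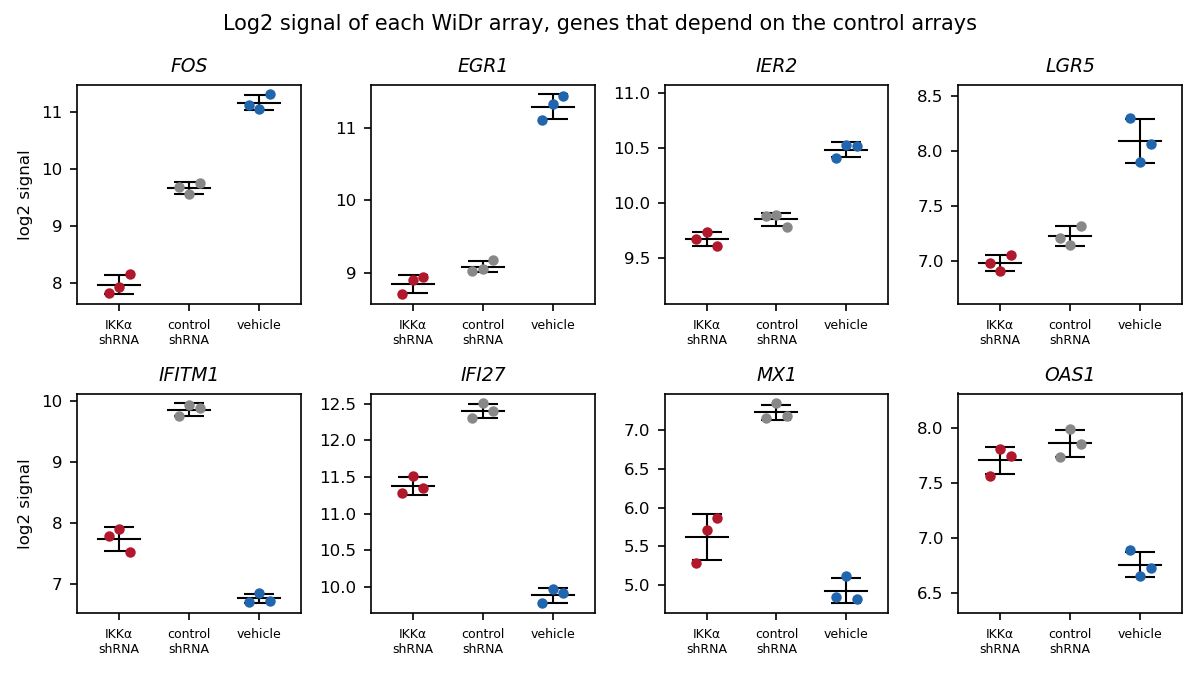
Log2 signal of each of the 9 WiDr arrays for 8 genes, with IKKα shRNA, control shRNA and vehicle arrays from left to right, where points are arrays and bars are the mean and SD of 3 arrays. The vertical axes do not start at 0. EGR1, IER2 and LGR5 separate vehicle from both transduced groups, FOS forms 3 levels, and for IFITM1, IFI27 and MX1 the IKKα shRNA arrays lie between the other groups.

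Output genes of the RAF to ERK cascade, which BRAF drives in these cells, moved in both directions. Of 21 measured genes, EGR1 among them, 8 rose and 4 fell against vehicle, with a median of 0.02, and 6 rose and 2 fell against both. The ERK phosphatase gene DUSP5 rose by 1.48 and PHLDA1, a feedback gene, by 0.83, whereas the inhibitors SPRED1 and SPRY2 fell by 0.97 and by 0.57. CCND1, which encodes cyclin D1, rose by 0.62 against vehicle and had no call against control shRNA, at 0.09. MYC changed by -0.04 without passing the test.

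Markers of the differentiated gut epithelium mostly fell where they changed. REG4, a lectin of goblet and enteroendocrine cells, had signals of 6.72, 6.55 and 6.50 in IKKα shRNA arrays, against 9.67, 9.72 and 9.61 in control shRNA arrays and 8.59, 8.47 and 8.68 in vehicle arrays. It fell by 1.99 against vehicle (SE 0.07, adjusted p = 5.08e-13) and by 3.07 against control shRNA, and control shRNA arrays were 1.08 above vehicle. AGR2 and AGR3, disulfide isomerases of secretory cells, fell by 1.11 and by 1.21, and the trefoil peptide TFF3 fell by 0.95. MUC13, a transmembrane mucin, rose by 1.75 against vehicle and by 0.31 against control shRNA. Of 20 measured secretory markers 8 fell and 2 rose against vehicle, with a median of -0.10, and 7 fell and 2 rose against both.

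Of 25 measured absorptive markers 8 fell and 1 rose against vehicle, with a median of -0.15, and 5 fell and none rose against both. The list's called share, 36%, was that of all genes (36.3%), of which 13.4% fell against both. LGALS4, a galectin of the brush border, had signals of 10.97, 10.88 and 11.06 in IKKα shRNA arrays, against 12.72, 12.67 and 12.64 in control shRNA arrays and 12.40, 12.49 and 12.51 in vehicle arrays. Its signal was 2.82-fold lower (SE 0.06 in log2, adjusted p = 9.36e-12), without overlap. LGALS2, another intestinal galectin, had signals of 3.89, 3.84 and 3.91 in IKKα shRNA arrays, against 7.84, 7.99 and 7.86 in control shRNA arrays and 5.13, 4.96 and 4.98 in vehicle arrays. The change was -1.14 against vehicle but -4.02 against control shRNA, and ANXA13, an annexin of intestinal cells, showed the same order of groups with changes of -1.18 and -3.52. The low LGALS2 signals of the IKKα shRNA arrays are not shown to be above background. PHGR1, a short protein of gut epithelium, fell by 2.53 against vehicle, and HSD17B2, which inactivates sex steroids, fell by 2.24.

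Other large falls stood against both sets of control arrays. ID2, an inhibitor of helix-loop-helix transcription factors, had signals of 7.53, 7.50 and 7.88 in IKKα shRNA arrays, against 9.96, 9.92 and 10.03 in control shRNA arrays and 10.23, 9.98 and 10.08 in vehicle arrays. It fell by 2.46 (SE 0.12, adjusted p = 3.82e-11), and control shRNA arrays differed from vehicle by -0.13 without a call. SLC38A11, a member of an amino acid transporter family, fell by 2.93, CAMK2N1, an inhibitor of CaM kinase II, by 2.44, GABRP, a GABA receptor subunit, by 2.43, and KCTD12, an auxiliary subunit of GABA-B receptors, by 2.34. ANP32E, a histone chaperone, fell by 2.13, and FGFR3, a fibroblast growth factor receptor, fell by 1.92 with 2 probe sets at -1.92 and -0.04. MYB, a transcription factor of intestinal progenitors, fell by 1.82 against vehicle and by 1.94 against control shRNA. LGR5, the receptor that marks intestinal stem cells, had signals of 6.98, 6.91 and 7.05 in IKKα shRNA arrays, against 7.21, 7.14 and 7.32 in control shRNA arrays and 8.30, 7.90 and 8.07 in vehicle arrays. Its fall of 1.11 against vehicle (SE 0.18, adjusted p = 8.47e-05) did not stand against control shRNA, where the change was -0.24 (adjusted p = 0.333).

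Genes of cell division fell by small amounts. Of 33 measured DNA replication genes 19 fell and 2 rose against vehicle, with a median of -0.30, and 18 fell and 1 rose against both. TYMS, thymidylate synthase, had signals of 11.48, 11.29 and 11.43 in IKKα shRNA arrays, against 12.32, 12.26 and 12.33 in control shRNA arrays and 12.23, 12.08 and 12.18 in vehicle arrays, a fall of 0.77 (SE 0.07, adjusted p = 1.94e-07). GINS2, a subunit of the replicative helicase, fell by 0.49, and ORC6, a subunit of the origin recognition complex, rose by 0.34. Of 26 measured mitosis genes 18 fell and none rose against vehicle, with a median of -0.32, and 14 fell against both. The kinetochore gene NUF2 fell by 0.71, the ubiquitin-conjugating enzyme UBE2C by 0.54 and the survivin gene BIRC5 by 0.52. CENPA, the histone of centromeres, fell by 0.56 against vehicle and had no call against control shRNA, at -0.18. Only the relative abundance of these transcripts was measured, and a lower share of dividing cells cannot be told apart from less RNA per cell.

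Of 18 measured p53 targets 9 fell and 3 rose, with the same counts against both sets of control arrays and a median of -0.18 against vehicle. MDM2, the ubiquitin ligase of p53, and CDKN1A, the cell cycle inhibitor p21, both fell by 0.61, SESN1 by 0.65 and the death receptor gene FAS by 0.64. GDF15, a stress cytokine that other pathways also raise, had signals of 13.25, 13.40 and 13.20 in IKKα shRNA arrays, against 11.47, 11.65 and 11.60 in control shRNA arrays and 11.70, 12.13 and 11.84 in vehicle arrays. It rose by 1.39 (SE 0.10, adjusted p = 4.48e-09), and the proapoptotic gene PMAIP1 rose by 0.72.

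Mesenchymal, laminin and integrin genes mostly rose where they changed. Of 17 measured members 7 rose and 1 fell against vehicle, with a median of 0.10, and 7 rose and none fell against both. TGFBI, a matrix protein induced by TGF-β, had signals of 10.25, 10.16 and 10.09 in IKKα shRNA arrays, against 8.33, 8.37 and 8.18 in control shRNA arrays and 7.94, 7.72 and 7.82 in vehicle arrays. It rose 5.07-fold (log2 2.34, SE 0.07, adjusted p = 7.92e-14). Fibronectin, encoded by FN1, rose by 1.87 with 8 probe sets between -0.24 and 3.95, integrin α2 (ITGA2) by 1.44, laminin β3 (LAMB3) by 1.17 and vimentin (VIM) by 1.25. LUM, the collagen-binding proteoglycan lumican, had signals of 6.12, 6.33 and 6.51 in IKKα shRNA arrays, against 3.71, 3.28 and 3.46 in control shRNA arrays and 3.15, 3.07 and 3.16 in vehicle arrays, a log2 rise of 3.19 over signals not shown to be above background. Of 11 fibroblast markers LUM and COL3A1 rose and THY1 fell by 0.21. The mean log2 signal of the 11 was 4.35 to 4.38 in IKKα shRNA arrays and 4.03 to 4.19 in vehicle arrays. The THY1 call was lost with averaged probe sets, repeated quantile normalisation, median centring or the replicate block. The rise of COL3A1, at 0.35, lost its call without 1 array of either group (0.20, adjusted p = 0.196, without the second IKKα shRNA array). Of 7 endothelial markers the receptor TEK (1.95) and the adhesion molecule ESAM (0.87) rose, and the mean signal of the list was 5.79 to 5.92 in IKKα shRNA arrays and 5.52 to 5.58 in vehicle arrays. Of 9 blood cell markers CD14 and HBB fell and none rose, and the list averaged 5.70 to 5.76 in IKKα shRNA arrays and 5.81 to 5.86 in vehicle arrays. The called shares of the fibroblast, endothelial and blood cell lists, 27.3%, 28.6% and 22.2%, lay below the 36.3% of all genes. The part of other cell types in these changes was not tested.

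**Figure D5:**
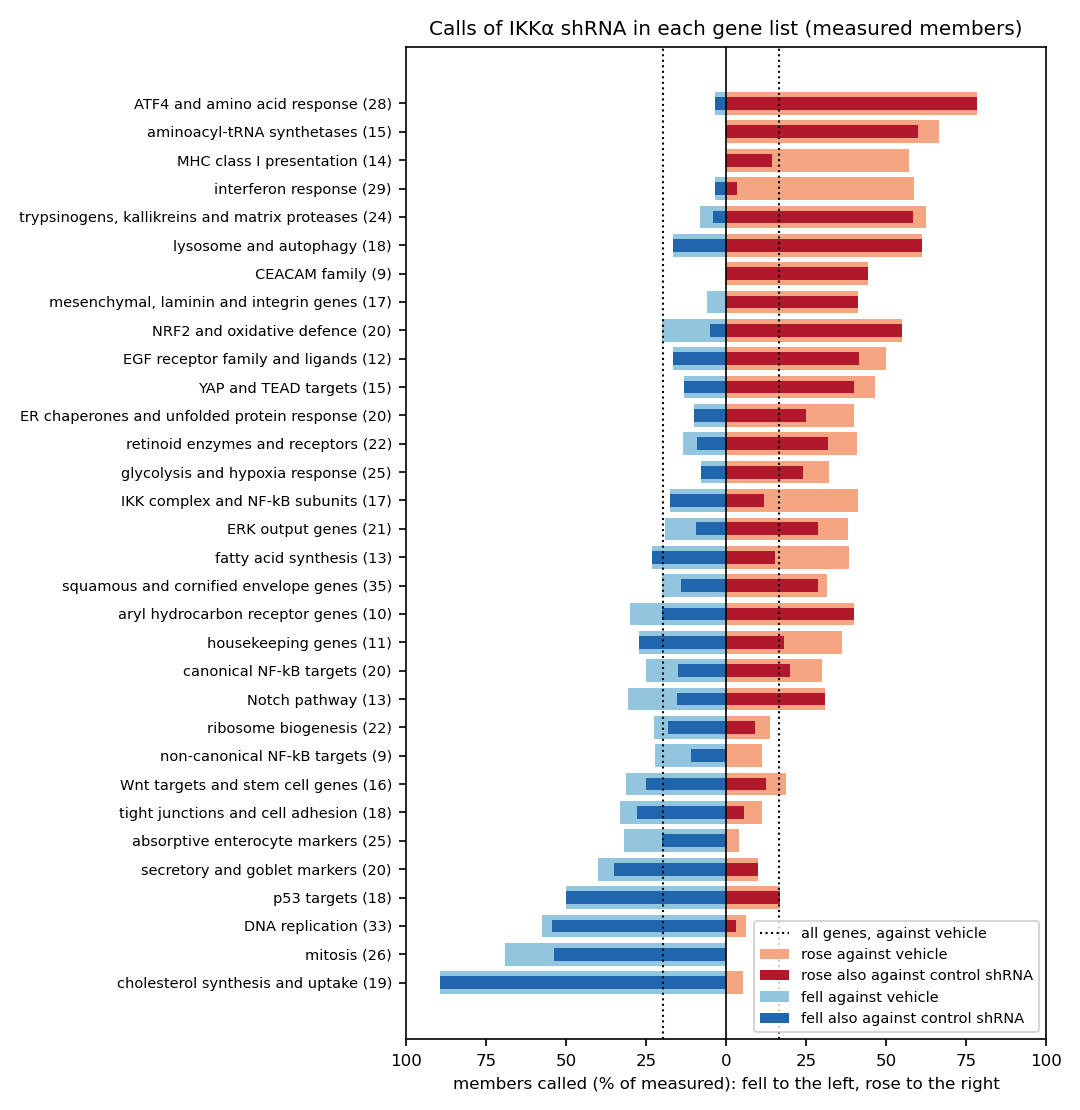
Share of the measured members of 32 gene lists that were called, with falls to the left and rises to the right of 0, pale bars against vehicle and dark bars for members called the same way against control shRNA too. Numbers in brackets are measured members, and dotted lines mark the shares of all genes against vehicle, 16.4% risen and 19.8% fallen. The amino acid response list extends furthest to the right and cholesterol synthesis furthest to the left, both with dark bars, and the interferon bar is almost all pale.

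Of the remaining large rises, PTGS2, the inducible cyclooxygenase that makes prostaglandins, had signals of 9.78, 9.74 and 9.89 in IKKα shRNA arrays, against 7.48, 7.36 and 7.45 in control shRNA arrays and 6.69, 6.61 and 7.01 in vehicle arrays. It rose 8.19-fold against vehicle (SE 0.13 in log2, adjusted p = 8.02e-12). FILIP1L, a regulator of cell migration, rose 23-fold through its brightest probe set (log2 4.52), with 7 probe sets between -0.15 and 4.52. TCN1, a vitamin B12 carrier, rose by 3.28, C4BPB, a chain of the complement regulator C4b-binding protein, by 3.23, and SERPINI1, the protease inhibitor neuroserpin, by 2.84. CTSS, the lysosomal protease cathepsin S, had signals of 7.51, 7.64 and 7.57 in IKKα shRNA arrays, against 7.35, 7.48 and 7.46 in control shRNA arrays and 6.06, 5.95 and 5.98 in vehicle arrays. Its rise of 1.58 was the largest among genes with no call against control shRNA, where the change was 0.14, and the other rises of that kind included the antiviral genes BST2 (1.02), OAS1 (0.95) and ISG20 (1.01).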

How the data were processed

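Total RNA (100 ng per array, per the labels' protocols) was hybridised to Affymetrix PrimeView arrays, which carry many short probes per transcript. The deposited values are log2 signals per probe set, normalised by the authors with RMA, and the submitters' processing notes name R 3.0.2 and limma. The scanner's probe intensities were not used here, so the number of arrays limits the precision. Of 49395 probe sets, 102 controls were left out, 44994 carried 1 gene symbol, 1832 several and 2569 none. For each of 18132 genes the brightest single-symbol probe set, by its average signal, was used. limma 3.58.1 in R 4.3.3 fitted 6 groups over 18 arrays (lmFit, eBayes, two-sided), with Benjamini-Hochberg adjustment over all genes and calls at an adjusted p under 0.05. The fit was tested on simulated data. Gene members and 36 gene lists were chosen with earlier results of these data known, and 653 of 710 list entries were measured. The others were not analysed here. Genes named are the IKK and NF-κB list, the 20 largest rises and falls, the largest with a call against both, against vehicle only (10 each way) or in opposite directions (10), and up to 5 rises, 5 falls and 2 others of each list. The 20 largest rises and falls were taken only from genes whose 3 IKKα shRNA arrays lay on 1 side of the 3 vehicle arrays. Lack of overlap with vehicle is therefore no added support for them. Genes named beside a promoter match are those that held it. Alternatives changed the probe sets per gene, the scaling, the filter, the arrays fitted and the replicate block.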

Additional observations from a re-analysis of the deposited data

How the results depend on the processing

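The main counts, 6573 calls with 2976 rises and 3597 falls, stayed within 1.5 times under 7 of the 9 alternatives that keep every replicate. A test against a 1.5-fold minimum (limma's treat) left 720 calls, 391 rises and 329 falls, and 571 called against both sets of control arrays, since it asks for larger changes. Taking each probe set as its own entry gave 15404 calls among more entries. With the probe sets of each gene averaged, 123 genes fell at least 2-fold in place of 212. Centring each array on its median gave 3221 rises and 3051 falls, so the excess of falls over rises depended on the scaling. Direction turned with averaged probe sets for DSC2 (0.19), IFI44 (0.065) and MMP13 (0.025). It turned with probe sets of possible cross-matches left out for ARNT (0.0098), BCL3 (-0.091), DSC2 (0.031), ERBB3 (0.011), MAFF (-0.045), PFKFB3 (-0.14) and SDHA (0.49); in each case another probe set was then read. Leaving out 1 replicate of IKKα shRNA, control shRNA or vehicle in turn gave 5665 to 6561 calls, 2600 to 2972 rises, 3065 to 3589 falls, 3928 to 4283 genes called against both, 507 to 537 calls at 2-fold (293 to 317 rises, 202 to 233 falls) and a CHUK change between -2.06 and -1.82. The control shRNA replicates were added to these after seeing the data. Deviations from the group mean correlated at -0.14, 0.25 and -0.01 between equal-numbered IKKα shRNA and vehicle arrays. Between unequal-numbered arrays they correlated at -0.33 to 0.32. With 3 arrays per group these correlations are tied to one another, so they cannot tell whether equal numbers mark pairs. With the replicate number as a block 6424 genes were called (2908 rises, 3516 falls), 4367 against both.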

Other observations

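Signalling lists outside those described above held changes in both directions. Among 12 measured genes of the EGF receptor family and its ligands 6 rose and 2 fell against vehicle, with a median change of 0.20. The ligand gene EREG had signals of 11.88, 11.85 and 12.04 in IKKα shRNA arrays, against 10.08, 10.06 and 10.01 in control shRNA arrays and 10.51, 10.55 and 10.46 in vehicle arrays, a rise of 1.42 against vehicle (SE 0.11, limma adjusted p = 2.7e-08). The feedback inhibitor gene ERRFI1 rose by 1.03, and the ligand gene HBEGF fell by 0.91. Among 13 Notch pathway genes 4 rose and 4 fell, with a median of 0.01. The ligand gene JAG1 rose by 1.11 and the target gene HEY1 by 0.80, whereas the receptor gene NOTCH1 fell by 0.42. Among 16 Wnt targets and stem cell genes 3 rose and 5 fell, with a median of -0.06. The feedback gene AXIN2 rose by 0.78, and EPHB3, a receptor of crypt cells, fell by 0.70. Among 15 YAP and TEAD targets 7 rose and 2 fell, with a median of 0.14. CCN2, a matrix-associated growth factor, fell by 1.34 and its relative CCN1 rose by 0.73, each with the same direction against control shRNA.

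Of 18 measured lysosome and autophagy genes 11 rose and 3 fell against vehicle, with a median of 0.30, and the same counts stood against both sets of control arrays. The autophagy gene WIPI1 rose by 0.76 and the proteases CTSD and CTSA (cathepsins D and A) by 0.57 and 0.56, whereas CTSB (cathepsin B) fell by 0.42. Of 18 tight junction and adhesion genes 2 rose and 6 fell, with a median of -0.10. The claudin gene CLDN1 rose by 1.63, and CLDN3 fell by 0.81, CLDN12 by 0.86 and the junction plaque gene CGN by 0.50. Of 25 glycolysis and hypoxia genes 8 rose and 2 fell against vehicle, with a median of 0.03, whereas 6 rose and 9 fell against control shRNA, with a median of -0.11. Control shRNA arrays lay above vehicle for 9 of them, and the glucose transporter gene SLC2A1 rose by 1.12. Of 22 ribosome biogenesis genes 3 rose and 5 fell, with a median of -0.03, among them POLR1A, the largest subunit of RNA polymerase I, which rose by 0.33, and the acetyltransferase NAT10, which fell by 0.30. The called shares of the glycolysis and ribosome lists, 40% and 36.4%, were near the 36.3% of all genes.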
